A study of Homo sapiens with 4 samples.

Results

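E5 cells and control cells of the human pancreatic ductal adenocarcinoma line KP4 were compared in the absence of drug. All 60651 genes with an Ensembl identifier in the stranded count table were taken, in the 3 E5 vehicle libraries and the 3 control vehicle libraries, which are 6 of the 12 libraries of the series. Of these genes, 30287 had a read in at least 1 of the 6 libraries and 15636 passed the filter on low counts and were tested. The groups used were E5 cells with DMSO, the vehicle, control cells with DMSO, E5 cells with FOLFIRINOX and control cells with FOLFIRINOX, each for 96 h. FOLFIRINOX stood here for 25 nM of SN-38, to which irinotecan is converted, 10 µM of an agent labelled 5-F and 5 µM oxaliplatin. All cells were grown in DMEM with 10% fetal bovine serum. The series title calls one of its lines resistant to FOLFIRINOX, and its design text speaks of 5 cycles of DMSO or FOLFIRINOX, but the labels do not say which cycles E5 cells had gone through or whether E5 is a clone. Both groups are the same tumour line, each group is 1 sample with 3 libraries, and nothing says that the libraries came from separate cultures, so p-values measure only the spread between these libraries, which may be technical.

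Several of the gene groups described here belong to innate immune defence. Cells that sense interferon activate transcription factors that bind a short promoter element, the interferon-stimulated response element, and raise antiviral genes such as the MX and OAS families. MHC class I molecules present peptides from inside the cell and occur on most cells. MHC class II molecules are made mainly by professional antigen-presenting cells, and the transactivator CIITA switches on their genes in other cells, usually after gamma interferon. NRF2 is the transcription factor that drives genes for glutathione, NADPH and quinone detoxification, and ABC transporters pump drugs out of cells. SN-38 acts on topoisomerase I, 5-fluorouracil is degraded by dihydropyrimidine dehydrogenase, and oxaliplatin crosslinks DNA.

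The E5 vehicle libraries held 7766074, 16581709 and 12232329 reads in genes, and the control vehicle libraries held 9230058, 21775030 and 18061835. Counts were scaled by the trimmed mean of M values, and levels are given as CPM, which is scaled to the reads of tested genes. The biological coefficient of variation over the 12 libraries was 7.37%. The summed level of 8 ductal markers was 745 to 831 CPM in E5 cells and 196 to 231 CPM in control cells, with 6 of the 8 at 1 CPM or more. EPCAM, an epithelial adhesion molecule, was below that level in both lines, with 0.291 ± 0.147 CPM in E5 cells and 0.599 ± 0.0607 CPM in control cells (SD, n = 3 each). Acinar markers summed to 0.255 to 0.503 CPM in E5 cells and 0.401 to 0.556 CPM in control cells. T and NK cell markers were at 0.0629 to 0.17 CPM in E5 cells and 0 to 0.114 CPM in control cells, and myeloid markers at 0.536 to 1.02 CPM and 0.744 to 0.778 CPM in the same order. In bulk RNA, fewer cells with a transcript and less of it per cell cannot be told apart.

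E5 cells differed from control cells in a large share of the transcriptome. By edgeR's quasi-likelihood test with Benjamini-Hochberg adjustment at 0.05, 6934 genes were called (44.3% of those tested), 3457 higher in E5 cells (22.1%) and 3477 lower (22.2%), with a median log2 fold change over all tested genes of -0.01. At least 2-fold in addition, 1949 genes were called (12.5%), 1162 higher (7.43%) and 787 lower (5.03%). The libraries of the 2 groups did not overlap for 8564 genes (54.8%). A gene that passed the filter on low counts only through the line in which it was high had to differ, so the counts over gene lists given here describe the list and are read against these shares of all tested genes.

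**Figure D1:**
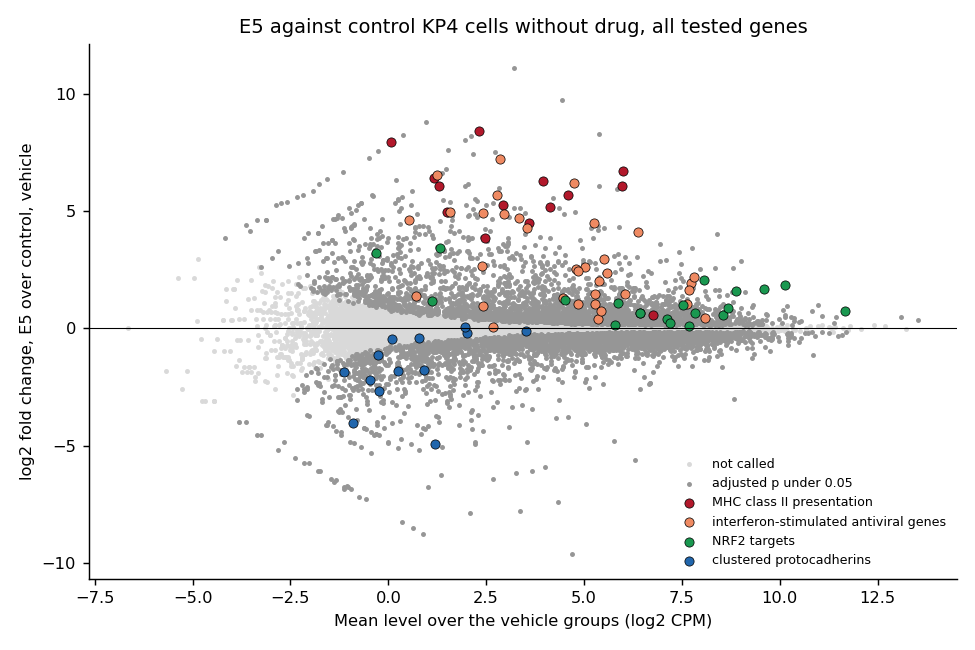
Each point is a tested gene, placed by its mean level over the vehicle groups (log2 CPM) and its log2 fold change of E5 over control cells with vehicle. Dark grey points are called and light grey points are not; coloured points are 4 gene lists. The MHC class II and interferon-stimulated genes lie above 0 over a wide range of levels, the NRF2 targets lie above 0 mostly at high levels, and most protocadherins lie below 0 at low levels.

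Interferon-stimulated antiviral genes were higher in E5 cells almost throughout. Of 36 listed genes 34 were tested, and 33 of them were higher, 29 at least 2-fold, with a median log2 fold change of 2.40. The remaining tested gene was not called. The response element, searched on both strands as a pair of GAAA blocks with any 2 bases between them, lay in the promoter window of 21 of the 29 listed genes that had a RefSeq entry (72.4%), against 3.57% of 35116 promoters. The windows run from 250 bases before to 50 bases after the gene's start in GRCh38.p14. The stretches shown are from 4 of these genes that were higher in E5 cells. Each carries a match to that element in capitals, with up to 20 bases on each side. This allows its letters and its distance from the start to be compared. IFI44L holds the same 50 bases at 2 places, chr1:78620264-78620313 and chr1:78620355-78620404 on the plus strand, and the element begins 164 and 73 bases before the start. The IFIT1 stretch is chr10:89392487-89392536 (plus strand, element on the opposite strand, 116 bases before the start). The ISG15 stretch is chr1:1013370-1013419 (plus strand, 107 bases before) and the BST2 stretch is chr19:17405731-17405780 (minus strand, 130 bases before). The IFIT1, ISG15 and BST2 stretches each hold a further match that is not fully in capitals. It begins 103, 113 and 124 bases before the start, in that order, and in ISG15 and BST2 overlaps the match in capitals.
IFI44L: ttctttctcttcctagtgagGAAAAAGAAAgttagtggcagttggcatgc
IFIT1: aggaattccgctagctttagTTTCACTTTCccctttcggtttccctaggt
ISG15: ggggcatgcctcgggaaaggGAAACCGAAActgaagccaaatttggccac
BST2: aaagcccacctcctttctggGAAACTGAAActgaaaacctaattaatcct
A match describes the letters of the window and does not show binding.

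IFI44L, an interferon-induced gene, had 15.9, 11.4 and 15.2 CPM in the E5 libraries and 0.222, 0 and 0.114 CPM in the control libraries. OAS2, which makes the oligoadenylate that activates RNase L (chr12:112978395-113011723), had 57.5, 47.2 and 54.9 CPM in E5 cells and 0.667, 0.716 and 0.744 CPM in control cells. All 3 E5 libraries lay far above all 3 control libraries for both genes. The log2 fold change was 7.23 ± 0.39 (SE) for IFI44L (adjusted p = 7.8e-11) and 6.19 ± 0.14 for OAS2 (adjusted p = 1.5e-15). IFI44L had 4 reads over the control libraries, so the size of its fitted value depends on the prior count of the fit. BST2, the tetherin that holds budding viruses at the cell surface, had 4.69, 4.4 and 4.94 CPM in E5 cells and 0, 0.0955 and 0 CPM in control cells, a ratio of 110 with a counting interval of 30 to 916. SAMD9L, an antiviral and growth-restraining factor, averaged 13.4 ± 1.62 CPM in E5 cells and 0.261 ± 0.127 CPM in control cells. MX1, a dynamin-like antiviral GTPase named after its values were seen, had 179, 128 and 163 CPM in E5 cells and 7.67, 9.31 and 10 CPM in control cells (log2 fold change 4.09 ± 0.13). IFIT1, an inhibitor of viral translation, and ISG15, a ubiquitin-like protein, were also named after their values were seen, with log2 fold changes of 2.04 ± 0.10 and 1.28 ± 0.11.

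Genes of interferon signalling and nucleic acid sensing were higher by smaller amounts. Of 30 tested genes for interferon receptors, signal transducers and nucleic acid sensors, 25 were higher, 11 of them at least 2-fold, with a median of 0.73. The cytosolic RNA sensor IFIH1 averaged 61.8 ± 2.53 CPM in E5 cells and 16.9 ± 1.43 CPM in control cells. TLR3, the endosomal sensor of double-stranded RNA, averaged 28.2 ± 1.14 CPM and 7.59 ± 0.0725 CPM in the same order, and DHX58, a regulator of the RNA sensors, 14.1 ± 1.56 CPM and 3.22 ± 0.809 CPM.

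Every one of the 14 MHC class II genes was higher in E5 cells, 13 of them at least 2-fold, with a median log2 fold change of 5.87. HLA-DRA, the alpha chain of HLA-DR (chr6:32439878-32445046), had 124, 125 and 127 CPM in E5 cells and 1.45, 0.764 and 1.54 CPM in control cells. CD74, the invariant chain that guards the peptide groove, had 135, 116 and 121 CPM in E5 cells and 1.56, 2.1 and 1.66 CPM in control cells. The transactivator CIITA had 25.4, 20.9 and 22.6 CPM in E5 cells and 0.667, 1.05 and 1.09 CPM in control cells. HLA-DRA, CD74 and CIITA were at 2.1 CPM or less in each control library and at 20.9 CPM or more in each E5 library, with log2 fold changes of 6.71 ± 0.14, 6.08 ± 0.12 and 4.51 ± 0.20 and adjusted p of 1e-15, 6.2e-16 and 6.8e-12. The last pair were named after their values were seen. HLA-DPB1 had 354 reads over the E5 libraries and 1 over the control libraries, a ratio of 478 with a counting interval of 85.2 to 18927. HLA-DQA1 had 72 reads in E5 cells and none in control cells, so it was at least 32.4-fold higher against a floor of 3 reads over the control group. The HLA-DRB and HLA-DQ genes differ between people and share sequence with one another, and the reference carries a single form of each, so their separate levels, such as the 30.4 ± 1.7 CPM of HLA-DRB5 in E5 cells against 0.351 ± 0.112 CPM in control cells, are uncertain.

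The Y box, an element known from class II promoters, was found in some of the class II windows. The interferon-stimulated response element was in none of the 11 class II windows with a RefSeq entry. The Y box, written ATTGGNNA on either strand, was in 6 of the 11 (54.5%) and not in the other 5, against 10.9% of all promoters. It was also in 5 of 16 MHC class I windows (31.2%) and 5 of 17 windows of NRF2 targets (29.4%). The 3 stretches shown carry it in capitals. They are chr6:33075892-33075939 for HLA-DPB1 (plus strand, box on the opposite strand, 78 bases before the start), chr6:32941029-32941073 for HLA-DMB (minus strand, opposite strand, 25 bases before) and chr6:32637318-32637365 for HLA-DQA1 (plus strand, 68 bases before).
HLA-DPB1: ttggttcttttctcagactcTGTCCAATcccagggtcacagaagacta
HLA-DMB: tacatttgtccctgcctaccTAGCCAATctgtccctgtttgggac
HLA-DQA1: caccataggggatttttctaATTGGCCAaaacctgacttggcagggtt
HLA-DMB, part of the peptide exchange factor HLA-DM, was named after its values were seen, with 4.96, 4.46 and 5.02 CPM in E5 cells and 0.111, 0 and 0.114 CPM in control cells.

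MHC class I genes were higher as well, by less. Of the 20 genes of class I presentation, 19 were higher, 15 at least 2-fold, with a median of 1.39, and the response element was in 9 of their 16 windows (56.2%). HLA-B had 321, 311 and 298 CPM in E5 cells and 32, 28.4 and 36.6 CPM in control cells (log2 fold change 3.26 ± 0.0814, adjusted p = 4.8e-15). HLA-C averaged 215 ± 13.7 CPM and 54.3 ± 6.76 CPM in the same order, and the non-classical HLA-F 15.5 ± 0.759 CPM and 1.27 ± 0.35 CPM. No library of one line reached the other line's range for these genes. B2M, the light chain of all class I molecules, was named after its values were seen and had a log2 fold change of 1.53 ± 0.0593.

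Inflammatory genes and immune ligands also differed. Of 14 secreted inflammatory factors, 11 were higher in E5 cells and 3 lower, with a median of 1.83. The chemokine CCL5 had 14.9, 14.8 and 16.9 CPM in E5 cells and 0.667, 0.43 and 0.629 CPM in control cells (log2 fold change 4.80 ± 0.18, adjusted p = 1e-12). The cytokine IL1B had 7.1, 8.99 and 7.92 CPM in E5 cells and 0.222, 0.286 and 0.286 CPM in control cells. The groups were far apart for both genes, and TNFSF10, the death ligand TRAIL, averaged 6.05 ± 0.153 CPM in E5 cells and 0.32 ± 0.202 CPM in control cells. Of 15 NF-kappaB subunits and feedback genes, 11 were higher and 2 lower, with a median of 0.56, among them the feedback inhibitor TNFAIP3 at 22.2 ± 0.296 CPM in E5 cells and 7.98 ± 0.305 CPM in control cells. Of 10 complement genes, 4 were higher and 3 lower. C3, the central component, averaged 18.1 ± 0.964 CPM in E5 cells and 0.438 ± 0.284 CPM in control cells. Of 19 immune checkpoint genes, 9 were higher and 3 lower. The tryptophan-degrading enzyme IDO1 had 8.84, 6.91 and 7.23 CPM in E5 cells and 0.222, 0.191 and 0.172 CPM in control cells (log2 fold change 5.25 ± 0.32). Of 21 death receptor and caspase genes, 11 were higher and 2 lower, with a median of 0.39, and CASP1, the inflammatory caspase that processes interleukin-1 beta, averaged 14.6 ± 0.745 CPM in E5 cells and 1.24 ± 0.299 CPM in control cells.

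The protein-coding genes with the largest fold higher in E5 cells, among those at 5 CPM or more in either line, were mostly near 0 in control cells. NRXN3, a neurexin known from synapses (chr14:78170373-79868291), had 18.5, 18.1 and 18.5 CPM in E5 cells and no read in any control library, so it was at least 289-fold higher against the floor of 3 reads. ARHGAP20, a GTPase-activating protein, had 43.3, 43.1 and 43.5 CPM in E5 cells and 0, 0.0477 and 0.0572 CPM in control cells, a ratio of 1025 with a counting interval of 283 to 8474. GDA, the guanine deaminase of purine breakdown (chr9:72114595-72257193), had 79.6, 86.9 and 80.9 CPM in E5 cells and 0.222, 0.239 and 0.286 CPM in control cells. The E5 libraries of each of these genes lay within a narrow range, and GDA had a log2 fold change of 8.30 ± 0.14 (adjusted p = 1.1e-16). VCAM1, the vascular adhesion molecule, had 305 reads over the E5 libraries and 1 over the control libraries, a ratio of 412 (counting interval 73.3 to 16315). The corresponding ratios were 367 for the water channel AQP4, 270 for the laminin chain LAMA4 and 209 for the retinoic acid receptor RARB. Fitted fold changes of genes with so few control reads depend on the prior count of the fit, so the ratios of reads are given instead.

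Among genes with the largest fold lower in E5 cells, several encode cell surface proteins and peptidases. PTPRC, the receptor phosphatase CD45 that is otherwise typical of blood cells (chr1:198638457-198757476), had 0.134, 0.0629 and 0 CPM in E5 cells and 54.7, 52.4 and 48.6 CPM in control cells. That is 2 reads over the E5 libraries against 2439 over the control libraries, and the ratio of control over E5 was 903 with a counting interval of 250 to 7464. Of the other blood lineage markers, CORO1A, an actin regulator of leukocytes, was lower by less, at 4.02, 4.84 and 3.06 CPM in E5 cells and 6.56, 5.73 and 6.98 CPM in control cells, and LCP1 and HCLS1 stayed below 1 CPM in every library. The neutral endopeptidase MME had 0.67, 0.629 and 0.255 CPM in E5 cells and 31.4, 33.2 and 29.2 CPM in control cells (log2 fold change -5.91 ± 0.20). TRHDE, a peptidase that degrades thyrotropin-releasing hormone, averaged 0.333 ± 0.173 CPM in E5 cells and 25.3 ± 2.13 CPM in control cells, and the matrix metalloproteinase MMP10 averaged 3.71 ± 0.325 CPM and 105 ± 4.94 CPM in the same order. For PTPRC, MME, TRHDE and MMP10 the highest E5 library was far below the lowest control library. CPED1 had 3.35, 3.02 and 3.23 CPM in E5 cells and 155, 163 and 148 CPM in control cells (log2 fold change -5.61 ± 0.14, adjusted p = 5.3e-15). Also in this group were SCEL, of the cornified envelope, at a ratio of 237 of control over E5, and the sulfotransferase SULT1B1 at 305. The calcium-binding protein CALB1 and protocadherin PCDH15 had log2 fold changes of -5.06 ± 0.46 and -4.91 ± 0.25. CALB1 had 5 reads over the E5 libraries, so the size of its fitted value depends on the prior count.

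A few genes were read in one line alone among the vehicle libraries. With 1 CPM or more in every library of one line and no read in the 3 libraries of the other, 4 protein-coding genes were found in E5 cells and 3 in control cells. Those of E5 cells were NRXN3, HLA-DQA1, the transcription factor MSC at 4.42, 2.89 and 4.34 CPM and the protease inhibitor A2M at 3.21, 2.77 and 1.79 CPM. MSC was at least 58.5-fold higher and A2M at least 40-fold higher than the floor of the control group. Those of control cells were the odorant receptor gene OR51B5, the zinc finger gene ZNF334 and the monocarboxylate transporter SLC16A7. They were at least 42.2-fold, 35.6-fold and 29.6-fold lower in E5 cells against the floor of the E5 group. Under FOLFIRINOX none of these 7 stayed without reads in the other line: over 3 libraries, drugged control cells had 9 reads of NRXN3, 14 of MSC, 10 of A2M and 2 of HLA-DQA1, and drugged E5 cells had 1 of OR51B5, 6 of ZNF334 and 1 of SLC16A7. Of the long noncoding genes at 5 CPM or more, the highest fold in E5 cells was that of MSC-AS1, which is antisense to MSC, at 7.88 ± 0.797 CPM in E5 cells and 0.271 ± 0.113 CPM in control cells. The 3 lowest were LINC02154 (log2 fold change -7.39 ± 0.29), TRHDE-AS1 (-6.41 ± 0.30) and LINC02228. They had 8, 5 and 2 reads over the E5 libraries, so the size of their fitted values depends on the prior count. The E5 reads of LINC02154 came mostly from library 1 (0.937, 0.0629 and 0 CPM). TRHDE-AS1 (chr12:72249964-72276954) lies within the span of TRHDE (chr12:72087266-72670758), which was lower too.

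**Figure D2:**
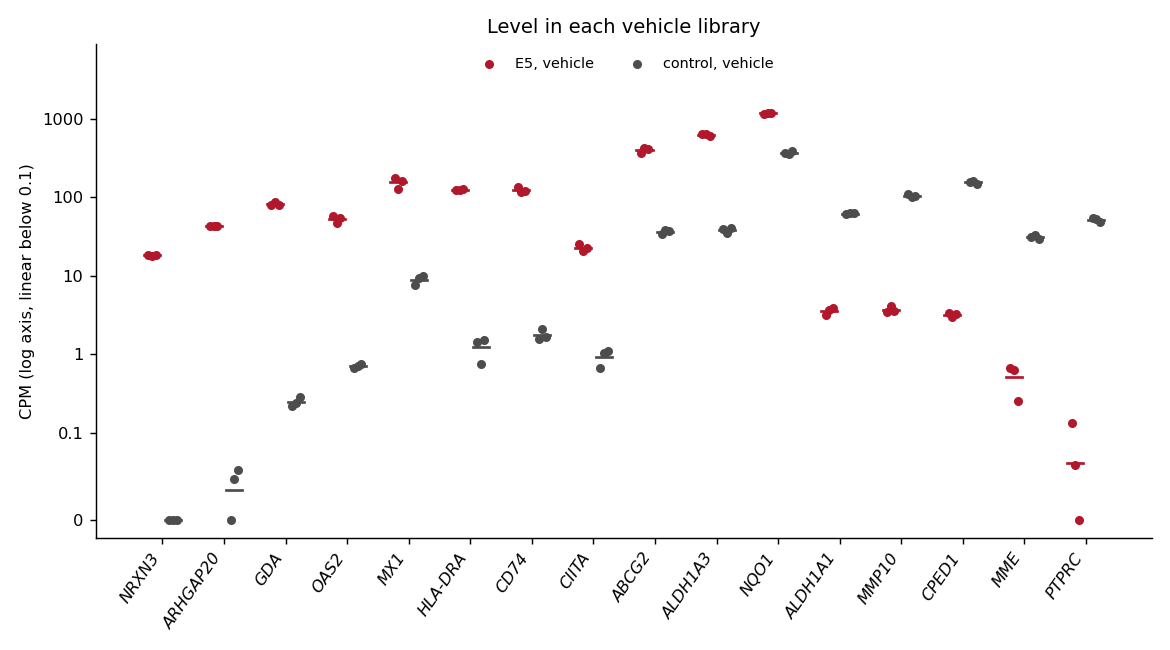
CPM of 16 genes in each vehicle library, on a log axis that is linear below 0.1, with E5 libraries in red to the left of control libraries in grey; bars are means of 3 libraries. The first 11 genes are higher in all 3 E5 libraries, such as ABCG2 at 366 to 421 CPM in E5 cells against 34.4 to 38 CPM in control cells, and the last 5 are lower.

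The genes of drug handling did not move as a block. Of 10 tested ABC efflux pumps, 6 were higher in E5 cells and 2 lower, with a median of 1.04. ABCG2, the breast cancer resistance protein, which exports SN-38 (chr4:88090150-88231628), had 366, 421 and 409 CPM in E5 cells and 34.4, 38 and 37.8 CPM in control cells. All 3 E5 libraries were above all 3 control libraries, and the log2 fold change was 3.44 ± 0.0696 (adjusted p = 7.8e-16). The P-glycoprotein gene ABCB1 stayed low, at 2.56 ± 0.382 CPM in E5 cells and 0.652 ± 0.0732 CPM in control cells (1.98 ± 0.24). ABCC2 averaged 11.4 ± 0.696 CPM and 4.27 ± 0.166 CPM, and ABCC3 21.6 ± 4.02 CPM and 8.81 ± 0.51 CPM, in the same order. ABCC1, a pump of glutathione conjugates, was at 129, 123 and 123 CPM in E5 cells and 112, 113 and 105 CPM in control cells and was not called (adjusted p = 0.056).

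Of 20 tested genes of fluoropyrimidine uptake and metabolism, 2 were higher in E5 cells and 9 lower, with a median of -0.18 and none called past 2-fold. DPYD, the dihydropyrimidine dehydrogenase that degrades 5-fluorouracil, had 77.4, 88.1 and 81.5 CPM in E5 cells and 170, 164 and 156 CPM in control cells (log2 fold change -0.98 ± 0.0728, adjusted p = 6.6e-09). The nucleoside transporter SLC29A1 averaged 30.1 ± 3.05 CPM in E5 cells and 53.6 ± 1.64 CPM in control cells. The drug's target TYMS was lower by little, at 193 ± 5.36 CPM and 235 ± 11.9 CPM in the same order. Of 11 topoisomerase and SN-38 handling genes, 3 were lower and 8 were not called. TOP1, the target of SN-38, had 300, 328 and 328 CPM in E5 cells and 451, 479 and 454 CPM in control cells (-0.53 ± 0.072, adjusted p = 1.1e-05). CES2, the esterase that converts irinotecan, was at 33.6 ± 1.57 CPM in E5 cells and 32.9 ± 3.39 CPM in control cells (0.03 ± 0.0919, adjusted p = 0.82).

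Of 19 genes of platinum uptake and thiol defence, 9 were higher and 4 lower, with a median of 0.27. GCLM, the regulatory subunit of glutathione synthesis, averaged 248 ± 8.85 CPM in E5 cells and 123 ± 8.38 CPM in control cells, and the metallothionein MT1E averaged 1.3 ± 0.817 CPM and 8.89 ± 0.673 CPM in the same order. Of 43 crosslink, excision and recombination repair genes, 6 were higher and 19 lower, with a median of -0.18. MGMT, which removes alkyl groups from guanine, had 1.34, 0.754 and 0.766 CPM in E5 cells and 7.12, 5.63 and 6.92 CPM in control cells (-2.85 ± 0.21, adjusted p = 7.3e-09). ERCC6, a factor of transcription-coupled repair, was higher, at 113 ± 7.28 CPM in E5 cells and 42.7 ± 4.7 CPM in control cells. BRCA2, a recombination mediator, was lower, at 26.3 ± 6.17 CPM and 62.4 ± 15.8 CPM, and ERCC1 was not called (adjusted p = 0.084). Of 30 p53 targets, 9 were higher and 6 lower, with a median of 0.06. MDM2 was at 147 ± 11.4 CPM in E5 cells and 141 ± 9.07 CPM in control cells and was not called (log2 fold change 0.06 ± 0.0903, adjusted p = 0.62). PERP, a p53-induced membrane protein of cell junctions, averaged 399 ± 10.9 CPM in E5 cells and 154 ± 1.4 CPM in control cells.

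Of the cell cycle genes that were called, most were lower in E5 cells. Of 36 DNA replication genes, 1 was higher and 21 lower, with a median of -0.20 and none called past 2-fold. POLE2, a subunit of polymerase epsilon, averaged 19.6 ± 0.779 CPM in E5 cells and 31.6 ± 0.764 CPM in control cells (-0.68 ± 0.0805). Of 32 mitotic genes, 1 was higher and 17 lower, with a median of -0.17, and the kinesin KIF11 averaged 228 ± 23.7 CPM and 409 ± 28.5 CPM in the same order. MKI67, the proliferation marker, had 1247, 1252 and 1349 CPM in E5 cells and 1676, 1811 and 1589 CPM in control cells. The groups did not overlap, and the log2 fold change was -0.40 ± 0.0846 (adjusted p = 0.00096). Of 19 G1 cyclins, kinases and inhibitors, 4 were higher and 12 lower, and cyclin D2 (CCND2) had a log2 fold change of -1.22 ± 0.12, at 13.6 ± 0.91 CPM in E5 cells and 31.5 ± 5.17 CPM in control cells. Of 29 ribosome biogenesis genes, 11 were lower and 18 were not called. MYC was at 117 ± 10.8 CPM in E5 cells and 117 ± 6.4 CPM in control cells. Of 16 BCL2 family genes, 4 were higher and 5 lower, with none called past 2-fold.

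Most NRF2 targets were higher in E5 cells, whereas aldehyde dehydrogenases went both ways. Of 20 tested NRF2 targets, 18 were higher in E5 cells, 10 at least 2-fold, with a median of 0.94. NQO1, the quinone reductase, had 1168, 1174 and 1206 CPM in E5 cells and 365, 356 and 386 CPM in control cells (log2 fold change 1.68 ± 0.0563, adjusted p = 2e-13). The ferritin chain FTH1 averaged 1755 ± 82.7 CPM in E5 cells and 485 ± 31 CPM in control cells. The antioxidant element, searched as TGACNNNGC, lay in 4 of 17 windows of these genes (23.5%), against 13.3% of all promoters. Its share was higher in the windows of the interferon-stimulated genes (31%), the class II genes (27.3%) and the class I genes (25%). Of 15 aldehyde dehydrogenases, 5 were higher and 4 lower, and ALDH1A3 and ALDH1A1, which both oxidise retinaldehyde, went opposite ways. ALDH1A3 had 633, 644 and 613 CPM in E5 cells and 39.4, 35.5 and 40.2 CPM in control cells (4.04 ± 0.0698, adjusted p = 1.1e-16). ALDH1A1 had 3.21, 3.65 and 3.92 CPM in E5 cells and 60.9, 63.2 and 62.5 CPM in control cells (-4.09 ± 0.10, adjusted p = 4.4e-15). Each line therefore had a high level of one of these 2 enzymes and a low level of the other.

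Lipid and stress genes varied within their lists. Of 23 cholesterol synthesis genes, 8 were higher and 4 lower, and of 17 fatty acid synthesis genes, 7 were higher and 3 lower. ACSL5, an acyl-CoA synthetase, had 22.1, 21.6 and 22.1 CPM in E5 cells and 0.556, 0.955 and 0.515 CPM in control cells (4.92 ± 0.18), whereas the desaturase FADS1 was lower, at 93.8 ± 6.44 CPM in E5 cells and 209 ± 2.93 CPM in control cells. Of 32 hypoxia and glycolysis genes, 22 were higher and 5 lower, with a median of 0.50. VEGFA, the vascular growth factor, had 294, 284 and 288 CPM in E5 cells and 52.5, 56.3 and 58.6 CPM in control cells (2.37 ± 0.0604, adjusted p = 6e-15), and the neuronal enolase ENO2 was lower, at 7.43 ± 0.349 CPM and 25 ± 1.45 CPM. Of 25 lysosomal genes, 18 were higher and 1 lower, with a median of 0.35, and of 18 ER chaperone genes 9 were higher and 1 lower. Of 22 ATF4 targets, 8 were higher and 2 lower, and of 19 serine and folate enzymes 2 were higher and 5 lower. The 13 listed transcripts of the mitochondrial genome had log2 fold changes of -0.07 to 0.15. By edgeR 0 of these 13 were called and 1 had an unadjusted p under 0.05, and DESeq2 called 0. Of all 31 tested genes of the mitochondrial chromosome, 6 were higher in E5 cells, 2 of them at least 2-fold, and 0 were lower.

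Genes of epithelial and mesenchymal identity moved in both directions. All 6 tested keratins were higher in E5 cells, with a median of 2.18. KRT8 had 259, 241 and 221 CPM in E5 cells and 30.2, 30 and 35.1 CPM in control cells (2.91 ± 0.0946, adjusted p = 1.3e-13), and the basal keratin KRT15 averaged 175 ± 4.39 CPM and 34.5 ± 0.557 CPM in the same order. Of 18 epithelial adhesion and polarity genes, 5 were higher and 8 lower, among them the transcription factor GRHL3 at 0.502 ± 0.147 CPM in E5 cells and 5.31 ± 0.448 CPM in control cells. Of 18 mesenchymal genes, 11 were higher and 4 lower, with a median of 0.38. FN1, fibronectin, averaged 28 ± 0.969 CPM in E5 cells and 6.26 ± 0.948 CPM in control cells, and SPARC, a matrix glycoprotein, averaged 10.6 ± 0.563 CPM and 0.499 ± 0.232 CPM. Vimentin (VIM) was the most abundant of these, at 2873 ± 80.6 CPM in E5 cells and 2473 ± 131 CPM in control cells (0.22 ± 0.0505, adjusted p = 0.0021). The summed level of the fibroblast markers was 16.3 to 17.5 CPM in E5 cells and 5.45 to 6.12 CPM in control cells. DCN was at 0, and 2 of the 7 markers reached 1 CPM in either line. Of the 3 that were tested, 1 was higher and 1 lower, each at least 2-fold, with a median of -0.65. The part of these markers in the matrix results was not tested. The endothelial markers summed to 7.63 to 8.85 CPM in E5 cells and 1.56 to 2.05 CPM in control cells with CLDN5 at 0. Of 10 classical pancreatic tumour genes, 4 were higher and 3 lower, with GATA6 at 22.2 ± 2.1 CPM in E5 cells and 5.28 ± 1.01 CPM in control cells, and of 11 basal-like genes 6 were higher and 4 lower.

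Matrix protein and integrin genes were mostly higher, whereas more of the matrix metalloproteinases and inhibitors were lower than higher. Of 27 collagens, laminins and matrix proteins, 17 were higher and 5 lower, with a median of 0.95, and thrombospondin 1 (THBS1) had 773, 781 and 753 CPM in E5 cells and 134, 139 and 119 CPM in control cells (2.56 ± 0.0677, adjusted p = 1e-14). Of 15 integrins, 11 were higher and 4 lower, with a median of 0.96. ITGA4, the alpha 4 chain that pairs into a receptor for VCAM1, had 45.8, 55.9 and 56.9 CPM in E5 cells and 1.22, 1.81 and 1.89 CPM in control cells (4.94 ± 0.15, adjusted p = 6.4e-14), so that both VCAM1 and a chain of its receptor were higher. Of 15 matrix metalloproteinases and inhibitors, 5 were higher and 9 lower. The collagenase MMP1 averaged 1.09 ± 0.201 CPM in E5 cells and 11.6 ± 0.867 CPM in control cells, the inhibitor TIMP2 33.1 ± 1.2 CPM and 169 ± 8.37 CPM, and the protease inhibitor SERPINE2, which was higher, 78.1 ± 3.39 CPM and 3.72 ± 0.744 CPM.

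Among signalling lists, 7 of 22 YAP and TEAD targets were higher and 1 lower, 11 of 24 TGF-beta genes were higher and 5 lower, 10 of 29 MAPK feedback and AP-1 genes were higher and 6 lower, and 12 of 37 receptor tyrosine kinases and ligands were higher and 13 lower. INHBA, the activin chain, averaged 24.7 ± 3.03 CPM in E5 cells and 2.12 ± 0.249 CPM in control cells, the immediate early factor EGR2 12.4 ± 1.76 CPM and 0.272 ± 0.214 CPM, and the EGF receptor ligand TGFA 9.94 ± 1.21 CPM and 0.629 ± 0.183 CPM. The growth factor IGF2 was lower, at 0.695 ± 0.144 CPM in E5 cells and 9.11 ± 0.923 CPM in control cells. Of 15 receptor tyrosine phosphatases, 6 were higher and 4 lower, and PTPRK, unlike PTPRC, was higher, at 296 ± 10.7 CPM and 72.7 ± 3.03 CPM. Of 38 WNT, Notch and hedgehog genes, 15 were higher and 13 lower, with the WNT effector LEF1 at 6.39 ± 0.604 CPM in E5 cells and 0.631 ± 0.116 CPM in control cells. Of 15 stemness and SOX factors 5 were higher and 9 lower, of 25 HOX genes 6 were higher and 10 lower, and of 31 histone deacetylases and methyl writers 7 were higher and 10 lower. HDAC9 had 9.78, 12.3 and 12.9 CPM in E5 cells and 43.6, 46.1 and 39.5 CPM in control cells (-1.86 ± 0.0968, adjusted p = 5.5e-11). Of 13 clustered protocadherins on chromosome 5, 8 were lower and 5 were not called, with a median of -1.79. Some of these genes share 3′ exons within a cluster, where reads may not be assigned to a single gene. The separate levels of the listed protocadherins are therefore uncertain. Under FOLFIRINOX, 5 of them were higher and 4 lower in E5 cells, with a median of 0.48, and the interaction was called for 9.

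**Figure D3:**
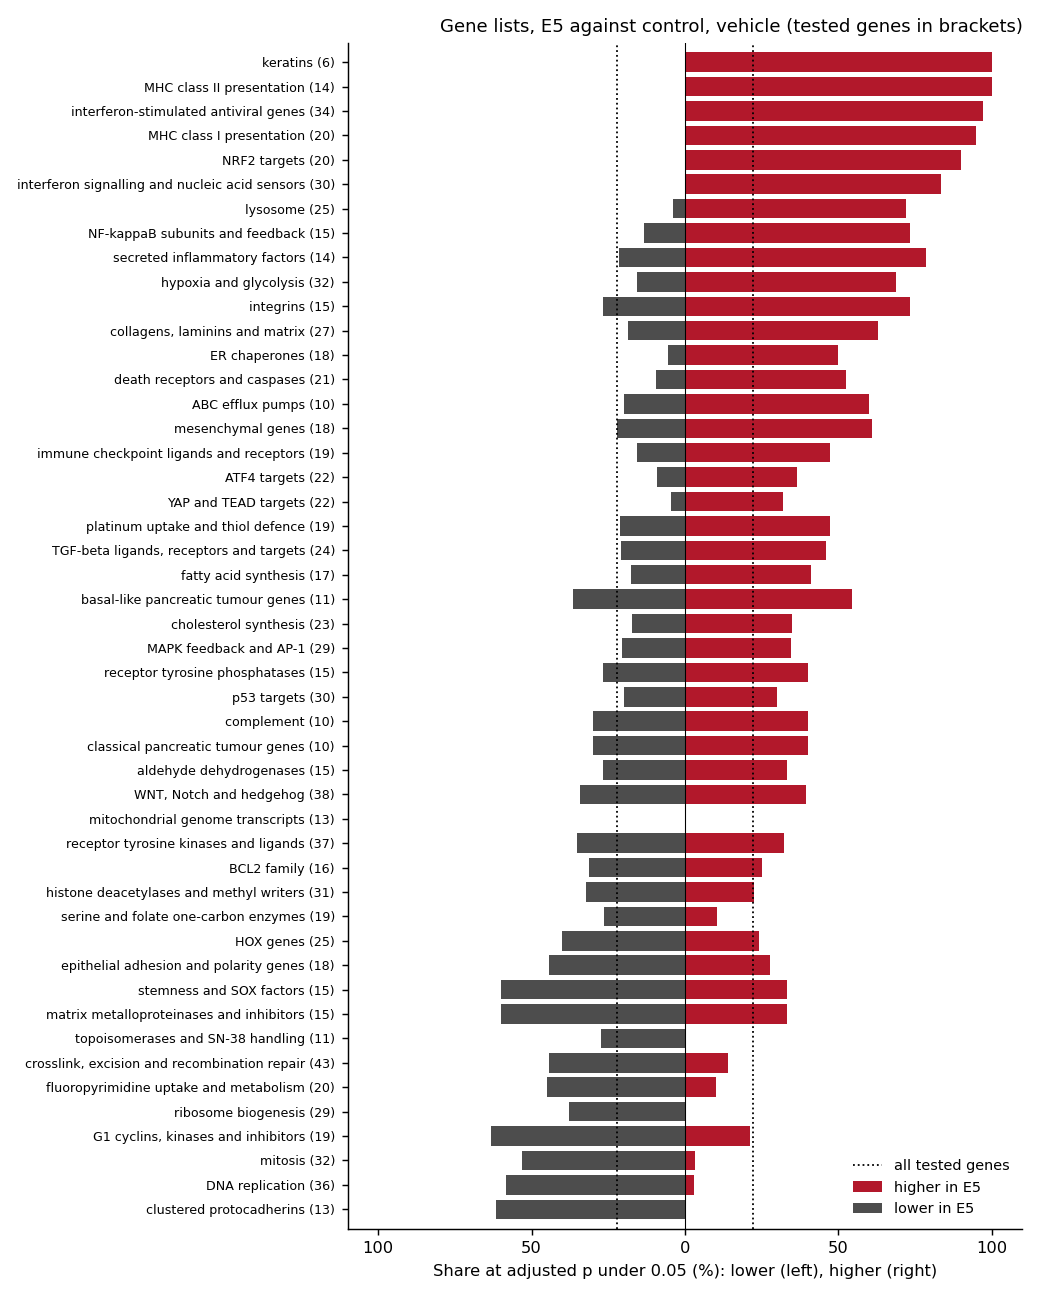
For each of 48 gene lists, the share of its tested genes called higher (red, right) or lower (grey, left) in E5 cells with vehicle, with the number tested in brackets; dotted lines mark the shares over all tested genes, 22.1% and 22.2%. Keratins, MHC class II, interferon-stimulated and MHC class I genes stand at the top, and protocadherins, DNA replication and mitosis at the bottom.

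The same lines were also sequenced under FOLFIRINOX, in libraries other than those compared with vehicle. The filter and the estimate of the spread were shared by all 12 libraries, so the calls with vehicle and under drug are not independent. There 8488 genes were called between E5 and control cells (54.3%), 4170 higher in E5 cells (26.7%) and 4318 lower (27.6%). Of the 6934 genes called with vehicle, 4415 were called the same way under drug (63.7%), 419 the opposite way and 2100 were not called. Of the 1949 that differed at least 2-fold with vehicle, 1625 were called the same way (83.4%), 40 the opposite way and 284 were not called. Across 13297 genes of at least 1 CPM, the log2 fold changes had a Pearson r of 0.81 and a Spearman coefficient of 0.61, given as a description, since genes are not independent replicates and each pair of groups came from its own set of libraries. The line difference itself differed between drug and vehicle for 4013 genes (25.7%), with a higher value under drug for 2080 (13.3%) and a lower value for 1933 (12.4%). Among the genes at least 2-fold higher with vehicle, that interaction was called for 483, with the same direction and a smaller difference under drug for 317 and a larger difference for 95. Among the genes at least 2-fold lower, it was called for 188, with 127 smaller and 26 larger. Choosing genes by a large difference with vehicle favours a smaller one under drug, and over all 6934 called genes 819 were smaller and 561 larger.

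Many interferon genes had a smaller line difference under drug. Of the 34 tested, 30 were higher in E5 cells under FOLFIRINOX and 2 were lower, with a median of 1.47, and for 17 the line difference was lower under drug than with vehicle by the interaction test. MX1 had 19, 20.2 and 17.1 CPM in drugged E5 cells and 4.37, 5.41 and 4.96 CPM in drugged control cells. OAS2 was at 8.32, 7.91 and 8.11 CPM in drugged E5 cells and 0.257, 0.149 and 0.223 CPM in drugged control cells, and its line difference of 5.31 ± 0.22 did not pass the interaction test (adjusted p = 0.31). All but 1 of the 14 class II genes were higher under drug, with HLA-DRA at 105, 95.9 and 94.6 CPM in drugged E5 cells and 0.9, 1.69 and 1.23 CPM in drugged control cells. GDA, ARHGAP20 and NRXN3 kept their order in every library, with 41.2 to 42.7 CPM of ARHGAP20 in drugged E5 cells and 0.0992 to 0.334 CPM in drugged control cells. PTPRC had 0.103, 0 and 0 CPM in drugged E5 cells and 13.2, 9.43 and 11.5 CPM in drugged control cells. DPYD was among the genes called the opposite way: it had 81.7, 86.3 and 77.9 CPM in drugged E5 cells and 64.8, 58.1 and 67.6 CPM in drugged control cells (0.37 ± 0.0737, adjusted p = 0.00043), and the interaction was 1.35 ± 0.10 (adjusted p = 1.9e-07). For ABCG2, the drugged libraries had 468, 455 and 460 CPM in E5 cells and 56.8, 52.4 and 55.4 CPM in control cells.

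**Figure D4:**
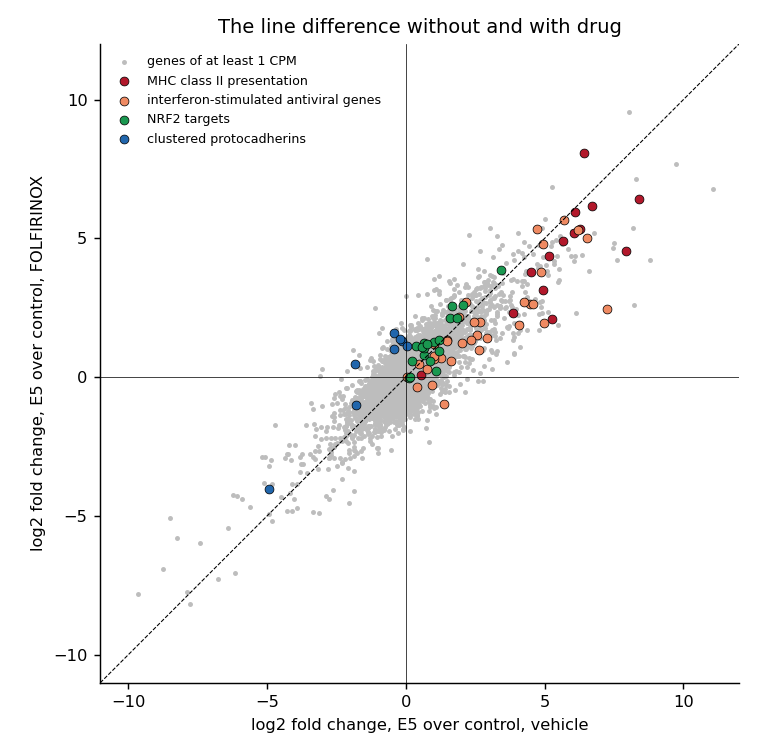
Each point is a gene of at least 1 CPM, placed by its log2 fold change of E5 over control cells with vehicle and under FOLFIRINOX; the dashed line marks equal values and coloured points are 4 gene lists. MHC class II genes lie high on both axes, most of them under the line, and many interferon-stimulated genes lie under it.

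The called genes were not spread evenly over the genome. On chromosome 10, 53.1% of 642 tested genes were lower in E5 cells and 11.1% higher, with a median log2 fold change of -0.38. On chromosome 18, 50% of 226 genes were lower and 11.9% higher, with a median of -0.29. Under FOLFIRINOX the medians of the same chromosomes were -0.33 and -0.24. Chromosomes 7 and 6 had the reverse balance, with 33.6% and 32.8% of genes higher and 10.3% and 14.6% lower. In windows of 10 Mb with at least 20 tested genes, the 264 medians ran from -0.69 to 0.38, and the central 90% of them from -0.39 to 0.19. The lowest median was that of chromosome 4 from 170000001 to 180000000, where 14 of 22 genes were lower. Chromosome 4 from 40000001 to 50000000 had a median of -0.58. On chromosome 16 the 4 windows from position 1 to 40000000 had medians of 0.03 to 0.07, and the 4 windows from 50000001 to 90000000 had medians of -0.41 to -0.34. On chromosome 10 the windows from 40000001 to 140000000 had medians of -0.63 to -0.32. Most of the lower genes of chromosome 10 differed by less than 2-fold, and 62 of the 341 passed that size.

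**Figure D5:**
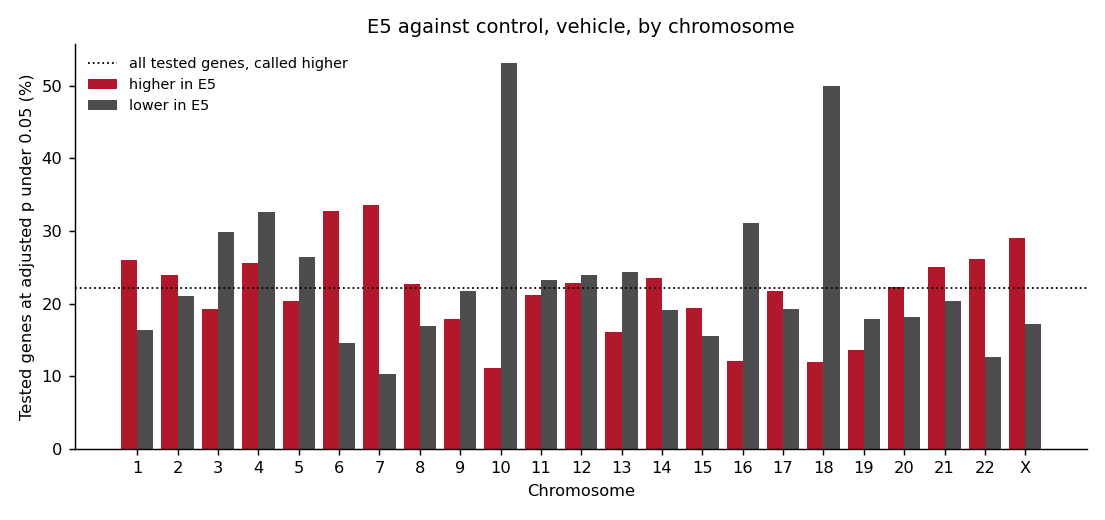
Share of tested genes on each chromosome called higher (red) or lower (grey) in E5 cells with vehicle; the dotted line marks the share of all tested genes called higher, 22.1%. Chromosomes 10 and 18 have 53.1% and 50% of genes lower, and chromosomes 7 and 6 the highest shares of genes higher.

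By gene type, 24.5% of 12650 protein-coding genes were higher in E5 cells and 25.1% lower, against 13.5% and 10.4% of 2083 long noncoding genes. Whether read depth plays a part in this was not tested. By length, the 1564 longest genes (161541 to 2304997 bases) had 30.9% higher and 28.8% lower, and 243 of them were at least 2-fold higher and 135 at least 2-fold lower. Of the 1564 shortest genes, 11.4% were higher and 8.76% lower. NRXN3, PCDH15 and RARB are among the long genes with large differences.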

How the data were processed

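RNA of KP4 cells was sequenced from poly(A) libraries (KAPA mRNA HyperPrep, per the labels' protocols). Reads were trimmed with Trimmomatic and aligned with STAR 2.5.1b to GRCh38, per the submitters' processing notes. The authors deposited stranded read counts per gene, with gene names and positions, which were used for the main test, together with stranded FPKM values and regularised log2 values, which were used as alternatives. No source used here gives the steps between alignment and these tables. The 12 libraries had 7359034 to 21775030 reads in genes, and no pair of libraries within a vehicle group agreed within sampling noise.

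Genes were filtered with filterByExpr and tested with edgeR 4.0.16 (R 4.3.3), with trimmed mean of M values scaling, 1 mean per group over all 12 libraries and 8 residual degrees of freedom. Calls used a Benjamini-Hochberg adjusted p under 0.05. Standard errors were derived from the fold change and its F value. Alternatives used DESeq2 1.42.0, limma 3.58.1 on the FPKM and log2 values, other scalings and filters, a replicate block and leaving out each library. The test was checked on simulated counts. Counting intervals are exact at 95% and, like the floors of 3 reads, cover counting error only. Promoter windows came from RefSeq (GRCh38.p14).

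The members and gene lists were chosen with earlier results of these data known. The text draws its genes from the 15 highest and 15 lowest protein-coding fold changes and the 3 highest and 3 lowest of long noncoding genes, at 5 CPM or more, from the 4 largest changes in each list at 1 CPM or more, from a list of drug and lineage genes and from the marker lists. Genes at 0 reads in either line were found by a separate search, and genes named after their values were seen are marked so. A few genes of the lists are counted there but are not reported here by name.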

Additional observations from a re-analysis of the deposited data

Results flagged for a closer look

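The difference between E5 and control cells was not the same under FOLFIRINOX as with vehicle for 4013 genes by the interaction test of edgeR (adjusted p under 0.05). The values given here are the log2 line difference under drug minus that with vehicle. They cover genes named in the report that passed this test with at least a 2-fold change. A negative value means that the gene was less high, or lower, in E5 relative to control cells under drug. Many of these genes were named for a large difference with vehicle, and such a choice favours a smaller difference under drug. Among interferon, MHC and inflammatory genes, it was -2.19 for MX1, -4.75 for IFI44L, -1.93 for HLA-B, -1.92 for HLA-F, -2.80 for C3, -3.11 for CCL5, -2.13 for IL1B and -1.08 for TNFAIP3. Among adhesion, matrix and keratin genes, it was -3.35 for LAMA4, -1.10 for FN1, -1.52 for MMP1, -1.60 for SERPINE2, -1.28 for KRT8 and -4.31 for NRXN3. Among signalling factors and regulators, it was -2.79 for RARB, -4.55 for MSC, -1.27 for EGR2, -3.01 for TGFA and -5.65 for A2M. Among transport and metabolism genes, it was -1.0 for ABCC2, -2.63 for ACSL5 and -1.18 for GDA. It was positive, at 1.35 for DPYD, 1.08 for MGMT, 1.53 for MME, 1.70 for PCDH15 and 1.79 for TRHDE. Those of A2M, MSC and NRXN3 rest on vehicle control libraries without reads. Those of LAMA4, RARB and IFI44L rest on 1, 2 and 4 reads there. The size of the values of these genes therefore depends on the prior count of the fit.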

How the results depend on the processing

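The number of genes called between E5 and control cells with vehicle, 6934, stayed within 1.5 times under the other scalings, filters and tools tried, for example 6148 with DESeq2, 5430 on log2(FPKM + 1) and 7070 on the deposited regularised log2 values. With reads scaled by total counts alone, 3321 genes were higher and 3619 lower. Asking for 2-fold in addition left 1949 genes, and testing against a fold of 1.5 left 1960. The count past 2-fold was 770 on log2(FPKM + 1) and 616 on the regularised log2 values, scales that by construction shrink the fold of low genes. Leaving out 1 library at a time gave 5949 to 7470 called genes, 3010 to 3749 higher, 2939 to 3721 lower and 1904 to 2033 past 2-fold. It gave 7683 to 8636 under FOLFIRINOX, 3216 to 4049 for the interaction and 3984 to 4708 called the same way in both. Pairing by library number was not seen in the correlations of same-numbered E5 and control vehicle libraries (0.005, 0.025 and -0.106). With 3 libraries per group, these values cannot exclude such a pairing. A fit with the number as a replicate block called 6635 genes. Of 106 genes named, 101 kept their direction and side of the threshold under all alternatives run. The exceptions were CES2, which was not called and had -0.05 to 0.12 with 1 library left out, the lowest without control vehicle library 2, and MYC, also not called, which had -0.08 to 0.04 and turned positive without control vehicle library 3 (0.04), E5 vehicle library 2 (0.02) or E5 vehicle library 3 (0.03). ABCC1 and ERCC1, not called, had an adjusted p by edgeR of 0.014 and 0.036 with the 6 vehicle libraries alone. ABCC1 also had 0.039 without control FOLFIRINOX library 2 and 0.049 and 0.02 without E5 FOLFIRINOX libraries 1 and 3, and ERCC1 had 0.023 without control FOLFIRINOX library 2, while CORO1A had 0.077 by limma on log2(FPKM + 0.1). Of 2016 recomputed counts over the gene lists, 1935 stayed within 1.5 times and the others moved by more. The cause of these changes was not tested. Depth limits the genes near 0: a floor of 3 reads over a group corresponds to 0.0854 CPM in E5 cells and 0.0633 CPM in control cells.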
